A study of Mus musculus with 20 samples.

Results

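The genes described here are 10 germ cell genes of the mouse, 8 of the PIWI-interacting RNA (piRNA) pathway (Tdrd1, Tdrd5, Tdrd9, Tdrkh, Ddx4, Mael, Piwil2 and Mov10l1) and 2 that encode germ cell RNA-binding proteins (Dazl and Ybx2). They were chosen by name from those roles, with earlier results of these data known. All 10 were found by gene identifier and GENCODE symbol among the 17651 genes of the deposited table. Whole wild-type ovaries were sequenced as 20 RNA libraries that fall into 5 groups of 4, namely young (7 to 8 weeks old), adult (27 to 28 weeks), adult given HEP14 (27 to 28 weeks), aged given vehicle (73 to 74 weeks, called aged here) and aged given HEP14 (73 to 74 weeks). HEP14 is a small molecule known as an activator of protein kinase C that promotes the formation of lysosomes. Titles of the samples name the adult HEP14 group, which the series' design text leaves out. Dose, route and duration are not stated. The young and adult groups have no stated vehicle. The study asked how RNA of the ovary changes with age and with HEP14 in aged mice.

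In mouse germ cells, piRNAs are small RNAs that guide PIWI proteins to transcripts of transposable elements. The PIWI proteins meet their partners in cytoplasmic granules called nuage or intermitochondrial cement, where Tudor domain proteins bind methylated arginines of PIWI proteins and helicases remodel the RNA. In the mouse this system is needed above all in the male germ line: males that lack one of these pathway genes are typically sterile, while females that lack one are mostly fertile. The ovary holds the same proteins in its oocytes, which also store translationally silent messenger RNA bound by proteins such as YBX2 (also called MSY2), and DAZL promotes translation of messenger RNA during oocyte growth and maturation.

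Each value is a score: the deposited table gives every gene a mean of 0 and a standard deviation (SD) of 1 over the 20 libraries. A value therefore places a library within the range of its own gene. A difference between groups is given in SD of that gene, is not a fold change, and does not compare levels between genes. The depth behind the values is unknown. Differences were tested with limma over all 17651 genes, and a gene was called where its Benjamini-Hochberg adjusted p was below 0.05. Nothing in the labels says that the libraries of a group came from separate animals, so the p-values measure the spread between these libraries, which may be technical.

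The libraries themselves differed. The median SD within a group over all genes was 0.867 in aged and between 0.279 and 0.462 in the other groups. A total of 4445 genes (25.2%) had a lowest value shared exactly by 2 or more libraries. The aged libraries 1 to 4 held 3697, 3589, 1956 and 2338 genes at such a tied lowest value, while the other 16 libraries held between 686 and 1218. Such a tie may stand for no reads, which the scores alone cannot show. Among the 10 genes, Tdrkh, Ddx4, Mael, Mov10l1 and Dazl had one, and in each the tied libraries included aged libraries 1 and 2. The 15 oocyte markers averaged between 0.88 and 1.47 SD in the young libraries and -1.86, -1.62, -0.89 and -1.17 in aged libraries 1 to 4. Granulosa markers averaged -2.27 and -1.89 in aged libraries 1 and 2, and -0.01 and 0.06 in libraries 3 and 4. In bulk tissue, fewer oocytes and less RNA per oocyte cannot be told apart, which applies to every result below.

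All 10 genes lie on autosomes as protein-coding genes (GENCODE M21, build GRCm38). The promoters of those that hold a CACGTG motif are shown so that the 2 motifs described after them can be seen in place. Each is the run of 250 bases before the RefSeq transcript start in GRCm38.p6, written 5′ to 3′ on the gene's own strand. Capitals mark CACGTG and, on either strand, TCCCGC (read as GCGGGA from the other strand). The windows lie at chr19:56825959-56826208 on the plus strand for Tdrd1, chr13:112652311-112652560 on the minus strand for Ddx4, chr1:166238745-166238994 on the minus strand for Mael, chr15:88982744-88982993 on the plus strand for Mov10l1 and chr12:111971309-111971558 on the plus strand for Tdrd9. RefSeq and GENCODE place some of these starts differently. The GENCODE start lies inside the window for Ddx4 (112652475), Mael (166238747) and Mov10l1 (88982909). The last part of these windows therefore lies inside the GENCODE gene, and for Ddx4 that part holds both marked motifs.
Tdrd1: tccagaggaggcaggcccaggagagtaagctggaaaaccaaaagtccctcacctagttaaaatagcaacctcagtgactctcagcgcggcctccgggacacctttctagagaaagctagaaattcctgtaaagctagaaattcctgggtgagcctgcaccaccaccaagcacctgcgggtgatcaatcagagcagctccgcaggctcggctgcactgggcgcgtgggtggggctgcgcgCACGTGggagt
Ddx4: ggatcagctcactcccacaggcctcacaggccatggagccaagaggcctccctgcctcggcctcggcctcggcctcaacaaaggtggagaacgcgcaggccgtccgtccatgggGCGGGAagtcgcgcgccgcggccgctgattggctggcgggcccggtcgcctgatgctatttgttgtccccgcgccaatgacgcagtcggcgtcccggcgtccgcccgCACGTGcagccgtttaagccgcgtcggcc
Mael: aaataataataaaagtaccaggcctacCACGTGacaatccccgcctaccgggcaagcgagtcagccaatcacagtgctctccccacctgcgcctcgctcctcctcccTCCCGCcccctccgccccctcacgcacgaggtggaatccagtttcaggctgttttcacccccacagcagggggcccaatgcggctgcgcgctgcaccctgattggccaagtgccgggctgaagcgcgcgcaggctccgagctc
Mov10l1: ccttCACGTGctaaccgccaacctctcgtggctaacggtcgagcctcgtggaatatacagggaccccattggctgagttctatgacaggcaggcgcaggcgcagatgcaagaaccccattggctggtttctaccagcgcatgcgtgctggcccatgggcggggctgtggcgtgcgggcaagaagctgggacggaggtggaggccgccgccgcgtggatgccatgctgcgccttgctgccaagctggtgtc
Tdrd9: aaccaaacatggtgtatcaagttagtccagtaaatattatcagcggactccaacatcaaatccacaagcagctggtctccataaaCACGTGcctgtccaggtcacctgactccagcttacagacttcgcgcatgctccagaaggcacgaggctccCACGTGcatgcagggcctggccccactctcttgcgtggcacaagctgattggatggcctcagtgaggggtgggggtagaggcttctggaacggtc

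A RefSeq window was found for 9 of the 10 genes, all but Piwil2, with 3 windows for Tdrd1 and 2 for Ybx2. CACGTG, the E-box bound by MAX-type basic helix-loop-helix factors, occurred in windows of 5 members, and Tdrd9 held it 2 times. Over all 32851 promoter windows of this length, 6.02% held it. TCCCGC, the core of sites bound by E2F6, occurred in 4 members (Ddx4, Mael, Tdrd5 and Ybx2), against 16.9% of all windows. Ddx4 and Mael held both motifs. MAX and E2F6 belong to a repressor complex known to silence germ cell genes in mouse somatic and embryonic stem cells. These matches are a description of letters and say nothing of binding in these ovaries.

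The windows were also rich in CpG dinucleotides, the bases at which DNA methylation silences several germ cell promoters in somatic tissue. The first windows held 40 CpG in Tdrd5, 35 in Ybx2, 31 in Ddx4, 20 in Dazl, 19 each in Mov10l1 and Tdrkh, 18 in Mael, 11 in Tdrd1 and 8 in Tdrd9. The median over all windows was 6, with quartiles at 2 and 16, and 7 of the 9 members lay above the upper quartile. Tdrd1 varied by start site, with 22 and 3 CpG in its other windows. The Tdrd5 window (chr1:156303349-156303598, minus strand) lies wholly inside the GENCODE gene, whose start is at 156303664. For Ybx2 (69935796) and Dazl (50293636) the GENCODE start lies inside the first window, so part of that window is within the gene.

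**Figure D1:**
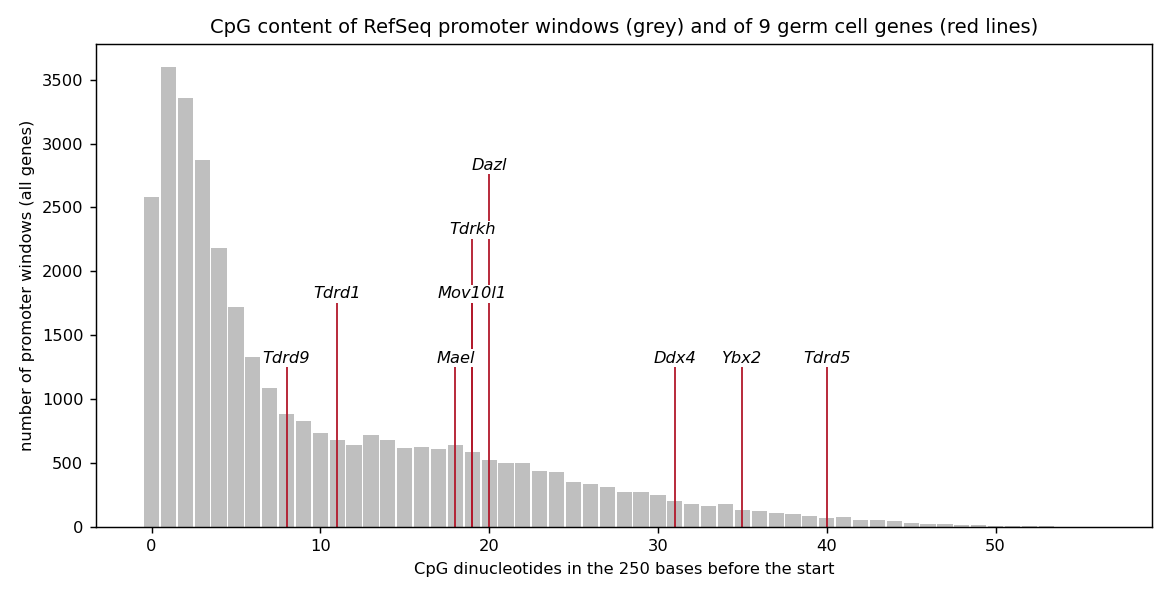
The histogram gives the number of RefSeq promoter windows (vertical axis) by the count of CpG dinucleotides in the 250 bases before the start (horizontal axis) for all genes, with 1 red line for the first window of each of 9 germ cell genes. The lines lie between 8 CpG for Tdrd9 and 40 for Tdrd5, all to the right of the median of 6.

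All 10 genes had their highest group mean in young ovaries, and among all genes 32.3% did. The lowest group mean was in aged for 6 members (46.1% of all genes), in aged HEP14 for Tdrd9, Ddx4 and Ybx2 (6.15%), and in adult for Piwil2 (11.9%). In the step from young to aged, 9 of the 10 genes fell (limma, adjusted p below 0.05), none rose, and Tdrd9 was not called. Of all genes, 74.3% were called in this comparison, 41.3% as lower and 33% as higher, so a call alone is common here. The median difference was -2.20 SD over the members and -0.41 SD over all genes. In 7 members every aged library lay below every young library, as in 35.4% of all genes. The library medians of the aged group lay 0.43 SD below those of the young group on average. With all library medians set equal, 7 of the 10 members were called, at -2.50 to -1.28 SD, where 12887 of all 17651 genes were called. With 1 variance for each group instead of a shared one, 10936 of all 17651 genes were called. Of the members, 6 were called (Tdrd1, Tdrd5, Tdrkh, Mael, Mov10l1 and Dazl). Those 6 were called in every alternative in which they were tested. The aged group enters both this comparison and the one with aged HEP14, so the 2 sets of differences share its 4 libraries.

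**Figure D2:**
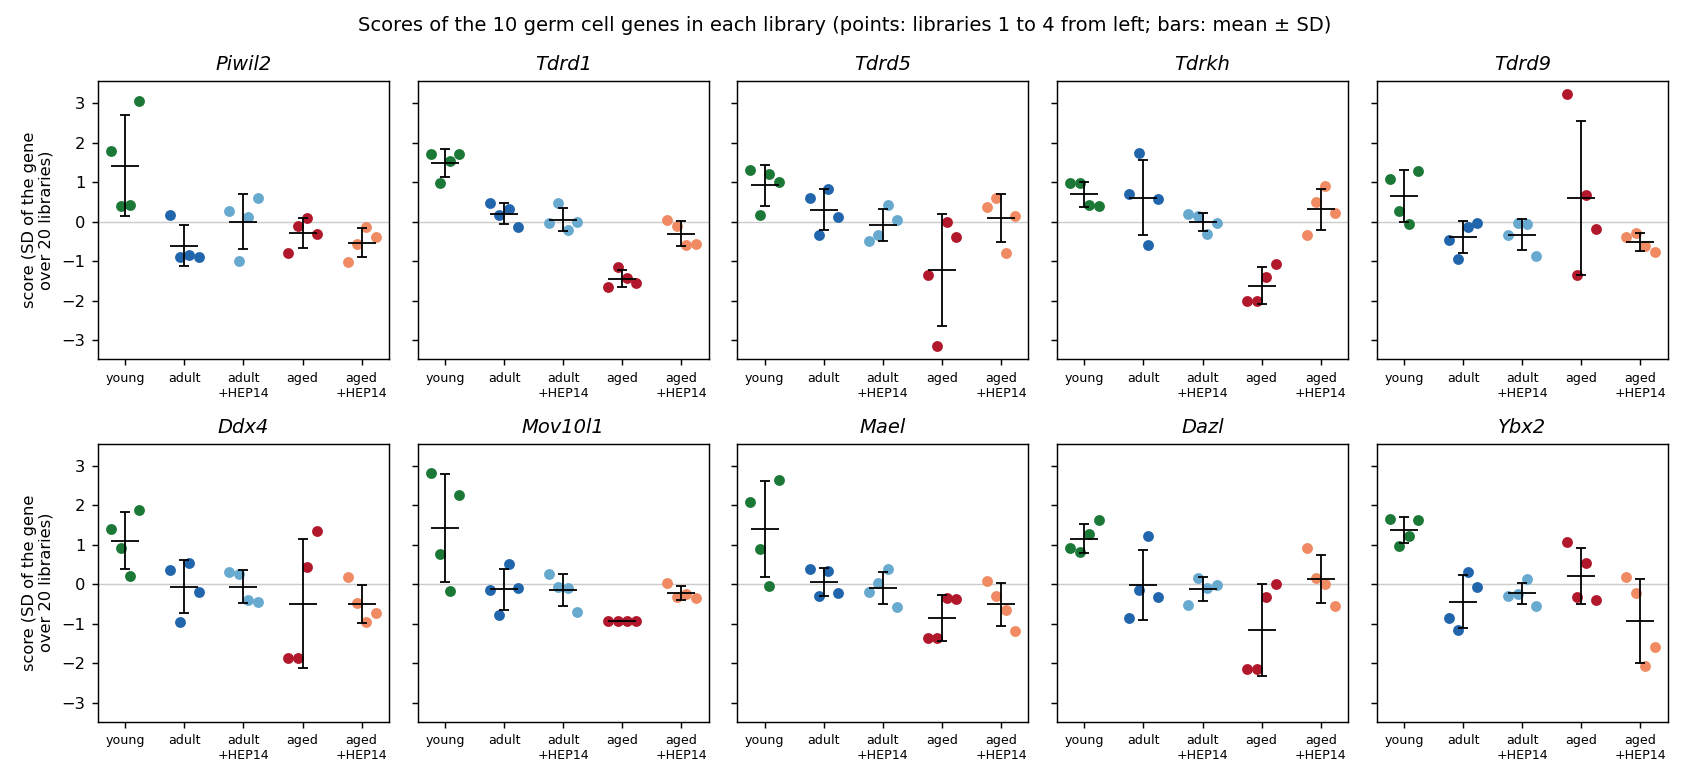
Each panel plots 1 of the 10 genes: the vertical axis is the score in SD of that gene, the horizontal axis is the group, points are libraries 1 to 4 from left, and bars are the mean ± SD. The young mean is the highest in every panel, and in Tdrd9, Ddx4, Tdrd5 and Dazl the 4 aged libraries are spread widely.

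Tdrd1, Tdrkh and Tdrd5 encode Tudor domain proteins. Tdrd1 encodes a scaffold of the intermitochondrial cement. Its score was 1.71, 0.98, 1.54 and 1.71 in young libraries 1 to 4 and 0.47, 0.18, 0.32 and -0.14 in adult. In aged ovaries it was -1.67, -1.16, -1.42 and -1.54, and in aged HEP14 0.04, -0.10, -0.59 and -0.57. The young libraries lay above the adult ones, the aged libraries lay below all others, and the aged HEP14 libraries lay between young and aged without overlap with either. Tdrd1 fell by 2.93 SD from young to aged (standard error, SE, 0.28; limma adjusted p = 1.64e-07) and by 1.28 SD from young to adult (adjusted p = 0.00896). It was 1.14 SD higher in aged HEP14 than in aged (SE 0.28; adjusted p = 0.00148) and 1.79 SD lower there than in young (adjusted p = 0.000605). The adult HEP14 libraries ran from -0.20 to 0.47 and overlapped the adult ones.

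Tdrkh encodes a Tudor and KH domain protein that tethers PIWI proteins to mitochondria and takes part in trimming of piRNA ends. Its score was 0.97, 0.97, 0.43 and 0.40 in young, 0.70, 1.75, -0.59 and 0.57 in adult, -2.01, -2.01, -1.41 and -1.07 in aged, and -0.33, 0.51, 0.89 and 0.21 in aged HEP14. The aged libraries were the 4 lowest of all 20, and libraries 1 and 2 shared the lowest value. Tdrkh was 2.32 SD lower in aged than in young (SE 0.40; limma adjusted p = 3.85e-05). It was 1.94 SD higher in aged HEP14 than in aged (SE 0.40; adjusted p = 0.000337). Its difference between aged HEP14 and young was -0.37 SD with a 95% interval of -1.21 to 0.46 (adjusted p = 0.552), and the young and adult means, 0.69 ± 0.32 and 0.61 ± 0.96 (SD, n = 4), were close. A sense-intronic gene inside Tdrkh, Gm42463, overlaps it by 4886 bases and is in the table as its own gene, and Oaz3, on the opposite strand, overlaps it by 2255 bases. Gm42463 lies on the same strand as Tdrkh, so the strand setting of the counting has no bearing on it. For Oaz3 that setting matters and is not stated. These overlaps are of whole gene spans, introns included, and need not be of exons. Whether reads of such partners were counted for Tdrkh was not tested. As with Oaz3, Rd3l overlaps Tdrd9 by 2207 bases on the opposite strand. Annotated genes that are not protein-coding overlap Tdrd5 (on either strand), Piwil2 and Mov10l1 (both on the same strand) by 102 to 646 bases.

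Tdrd5, a Tudor protein of the germ granule that is needed for transposon silencing in mouse spermatogenesis, was uneven between aged libraries, at -1.35, -3.16, -0.00 and -0.38. In young it was 1.32, 0.16, 1.21 and 0.997, and in aged HEP14 0.38, 0.60, -0.78 and 0.14. Every aged library was below every young one, but the aged and aged HEP14 libraries overlapped. Tdrd5 fell by 2.14 SD from young to aged (SE 0.52; limma adjusted p = 0.00109) and was 1.31 SD higher in aged HEP14 than in aged (SE 0.52; adjusted p = 0.0347). The second call rested on single libraries: without aged library 2 the adjusted p was 0.176, without aged library 1 it was 0.0627, and without aged HEP14 libraries 1, 2 or 4 it was 0.0777, 0.0921 or 0.0625. In adult the score was 0.60, -0.33, 0.82 and 0.12, a difference from young of -0.62 SD (adjusted p = 0.471).

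Of the helicases, Mov10l1 encodes the RNA helicase that feeds piRNA precursors into the pathway. Its score was 2.83, 0.78, -0.16 and 2.26 in young, and -0.94 in all 4 aged libraries, which shared the lowest value. In aged HEP14 it was 0.03, -0.32, -0.24 and -0.35, above every aged library. Mov10l1 fell by 2.37 SD from young to aged (SE 0.47; limma adjusted p = 0.000152). The difference of 0.72 SD between aged HEP14 and aged was not called (adjusted p = 0.185), although the groups did not overlap. With only these 2 groups in the fit the adjusted p was 0.0391, a fit in which the tied aged libraries add no spread. With 1 variance for each group the adjusted p was 0.585, and with library medians set equal it was 0.537. Aged HEP14 was 1.65 SD below young (adjusted p = 0.0211).

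Ddx4 encodes the mouse homologue of the fly Vasa helicase, the common marker of germ cells. Its young libraries were at 1.39, 0.93, 0.20 and 1.90 and its aged libraries at -1.87, -1.87, 0.44 and 1.34. Aged libraries 1 and 2 shared the lowest value while libraries 3 and 4 lay within the young range. Ddx4 was 1.59 SD lower in aged than in young (SE 0.59; limma adjusted p = 0.0194), and this call was lost without young library 4 (adjusted p = 0.0654), aged library 1 (0.0872) or aged library 2 (0.0884). Without both aged libraries 1 and 2 the difference was -0.21 SD (adjusted p = 0.712). The aged HEP14 libraries, at 0.18, -0.47, -0.96 and -0.73, fell inside the aged range, a difference of -0.01 SD (adjusted p = 0.997). Without aged libraries 1 and 2, Ddx4 was 1.39 SD lower in aged HEP14 than in aged (adjusted p = 0.0228).

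Tdrd9, a helicase with a Tudor domain that works in transposon silencing in the mouse testis, was the 1 member with no call in any of the comparisons. Its aged libraries were at 3.24, -1.34, 0.68 and -0.19, and aged library 1 held the highest score of any member in any library. In young it was 1.09, 0.26, -0.07 and 1.29, and in aged HEP14 it ran from -0.77 to -0.29. The aged minus young difference was -0.05 SD with a 95% interval of -1.34 to 1.24 (limma adjusted p = 0.953). The aged HEP14 libraries lay below all young ones, at a difference of -1.16 SD (adjusted p = 0.204). Tdrd9 was called once aged library 2 was left out, 1.76 SD lower in aged HEP14 than in aged (adjusted p = 0.0113) and 1.64 SD higher in aged than in adult (adjusted p = 0.0157).

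Piwil2 encodes the PIWI protein MILI, the slicer that loads primary piRNAs and starts their amplification. Its young libraries were at 1.80, 0.40, 0.42 and 3.07 and its adult libraries at 0.17, -0.89, -0.84 and -0.89. The aged libraries were at -0.80, -0.12, 0.09 and -0.30, and aged HEP14 ran from -1.02 to -0.14. Young lay above both adult and aged, and the remaining groups overlapped one another. Piwil2 fell by 2.03 SD from young to adult (limma adjusted p = 0.0153) and by 1.71 SD from young to aged (SE 0.49; adjusted p = 0.00417). The aged minus adult difference of 0.33 SD was not called (adjusted p = 0.569). With 1 variance for each group, the young to aged difference was not called (adjusted p = 0.127), and the adult call was lost without young library 1 (0.0548) or adult library 2 (0.0509).

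Mael encodes Maelstrom, a nuage protein needed to repress transposons. It scored 2.10, 0.90, -0.04 and 2.65 in young and -1.36, -1.36, -0.34 and -0.36 in aged. The aged libraries were all below the young ones, and aged libraries 1 and 2 shared the lowest value. Mael fell by 2.26 SD (SE 0.47; limma adjusted p = 0.000263). In aged HEP14 it was 0.09, -0.29, -0.66 and -1.18, overlapping aged at a difference of 0.35 SD (adjusted p = 0.533) and 1.91 SD below young (adjusted p = 0.00992). The adult mean of 0.05 ± 0.36 (SD, n = 4) was 1.35 SD below young, which was not called (adjusted p = 0.0702).

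Of the RNA-binding proteins, Dazl scored 0.91, 0.81, 1.27 and 1.62 in young and -2.16, -2.16, -0.32 and -0.00 in aged. The groups did not overlap, and aged libraries 1 and 2 shared the lowest value. Dazl fell by 2.31 SD from young to aged (SE 0.50; limma adjusted p = 0.000353). In aged HEP14 it was 0.93, 0.17, 0.01 and -0.54, which was 1.30 SD above aged (SE 0.50; adjusted p = 0.0282), with overlap. That call was lost without aged library 1 (adjusted p = 0.103), aged library 2 (0.105) or aged HEP14 library 1 (0.0979) or 2 (0.0502), and without both aged libraries the difference was 0.30 SD (adjusted p = 0.603).

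Ybx2 moved the other way under HEP14. Its young libraries were at 1.65, 0.97, 1.24 and 1.63, its adult ones at -0.85, -1.15, 0.32 and -0.06, its aged ones at 1.06, -0.32, 0.54 and -0.40, and its aged HEP14 ones at 0.18, -0.22, -2.08 and -1.58. Aged library 1 lay within the young range, and the lowest aged HEP14 libraries were 3 and 4. Ybx2 was 1.81 SD lower in adult than in young (limma adjusted p = 0.0208) and 1.15 SD lower in aged (SE 0.46; adjusted p = 0.0306). It was 1.14 SD lower in aged HEP14 than in aged (SE 0.46; adjusted p = 0.0376) and 2.30 SD lower there than in young (adjusted p = 0.0032). The aged call was lost without young library 1 (0.071) or 4 (0.069) and without aged library 2 (0.0842) or 4 (0.0924), and with medians set equal (0.17). The HEP14 call was lost without aged library 1 (adjusted p = 0.122) or 3 (0.0811), and without aged HEP14 library 3 (0.16) or 4 (0.117).

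Taking HEP14 in aged ovaries across the 10 genes, Tdrkh, Tdrd1, Tdrd5 and Dazl were higher than in aged, Ybx2 was lower, and 5 were not called (limma). Of all genes 62.5% were called, 33.2% as higher and 29.3% as lower, so the members' shares lie near the background. The median difference was 0.53 SD over the members and 0.31 SD over all genes. Granulosa markers were also higher here, 6 of 9 called and none lower (median 1.81 SD), with means of 0.75, 0.59, 0.30 and 0.32 SD in aged HEP14 libraries 1 to 4, and their part in the differences of the 10 genes was not tested. In Tdrkh, Tdrd1 and Mov10l1 every aged HEP14 library lay above every aged one, as in 25.8% of all genes. The calls of Tdrd1 and Tdrkh were made in every alternative in which they were tested, with adjusted p between 0.000851 and 0.0367 for Tdrd1 and between 0.0003 and 0.0171 for Tdrkh. With library medians set equal, which moves aged HEP14 against aged by 0.37 SD, Tdrkh was 1.58 SD higher and Tdrd1 0.78 SD higher, Ybx2 was 1.51 SD lower and Tdrd9 1.48 SD lower, and Tdrd5 and Dazl were not called. With 1 variance for each group, only Tdrd1 and Tdrkh of the members were called, where 8175 of all 17651 genes were. Without aged libraries 1 and 2 (chosen after seeing the data) the calls were Tdrd1, Tdrkh and Ddx4, where 9927 of all genes were called. Leaving out aged library 1 alone lowered the members called from 5 to 2, where all genes called went from 11031 to 10834. Leaving out aged HEP14 library 1, 2 or 4 lowered the members called to 3, where 10381, 10491 and 10259 of all genes were called.

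**Figure D3:**
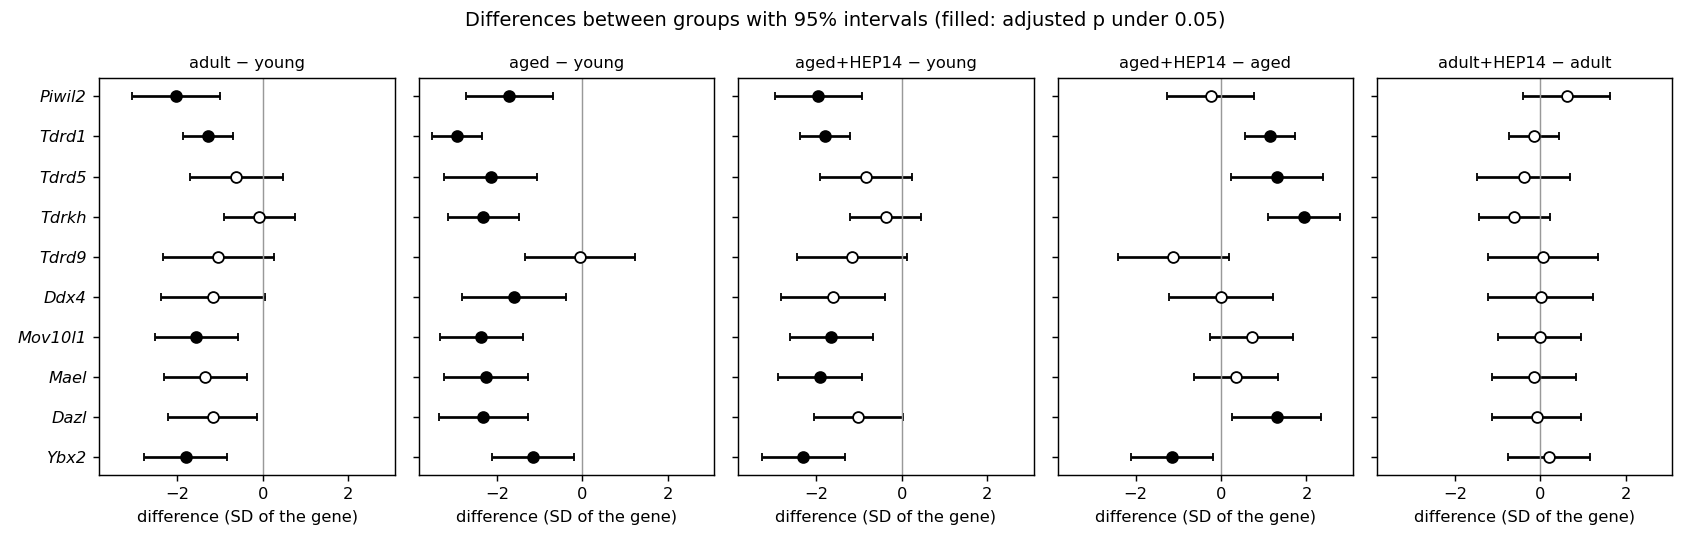
Horizontal positions are differences between groups in SD of the gene with 95% intervals, 1 row for each of the 10 genes and 1 panel for each of 5 comparisons, with filled points where the limma adjusted p was below 0.05. From young to aged 9 genes are called lower, in aged HEP14 against aged Tdrkh, Tdrd1, Tdrd5 and Dazl are called higher and Ybx2 lower, and in adult HEP14 against adult none is called.

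In adult ovaries no difference between HEP14 and no HEP14 was called among the 10 genes (limma, 0 of 10 called, 0 at an unadjusted p below 0.05, and 0 under every alternative). In this comparison 0.00567% of all genes were called, 1 gene, and 345 genes (1.95%) had an unadjusted p below 0.05. The members' differences ran from -0.61 SD in Tdrkh (95% interval -1.45 to 0.23) to 0.61 SD in Piwil2 (-0.41 to 1.64). The interval of Tdrd1 was -0.73 to 0.43 SD. The difference between the HEP14 effects in aged and adult was tested directly. It was 2.55 SD for Tdrkh (SE 0.57; limma adjusted p = 0.0014) and 1.29 SD for Tdrd1 (SE 0.39; adjusted p = 0.0114), and the other 8 members were not called, where 47.3% of all genes were, 24.9% in the direction of a higher effect in aged and 22.4% in the other. With medians set equal the Tdrd1 value was 0.94 SD (adjusted p = 0.0718) and Ybx2 was called at -1.71 SD (adjusted p = 0.0437). Without aged library 4, Tdrd5 (adjusted p = 0.0355) and Dazl (0.0369) were called as well.

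Between young and adult, 4 of the 10 genes fell (Piwil2, Ybx2, Mov10l1 and Tdrd1) and none rose, where 9.92% of all genes were called, 7.17% as lower and 2.75% as higher (limma). In Ybx2, Piwil2 and Tdrd1 every adult library lay below every young one, as in 16.5% of all genes. All 10 differences were below 0, with a median of -1.23 SD against -0.01 SD over all genes. Mov10l1 was 1.55 SD lower (adjusted p = 0.04). Dazl (-1.18 SD, adjusted p = 0.129), Ddx4 (-1.17 SD, 0.202), Tdrd9 (-1.04 SD, 0.291) and Tdrkh (-0.09 SD, 0.929) were not called. The count moved with single libraries: it was 1, Tdrd1, without young library 1 or adult library 2, was 2 without adult library 1 and was 5, with Mael, without young library 3. All genes called in these 4 settings numbered 628, 646, 1074 and 865, in the same order. With 1 variance for each group 8 members were called, all but Tdrd5 and Tdrkh. In that setting 5174 of all 17651 genes were called, against 1751 with a shared variance.

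From adult to aged, 4 members fell (Tdrkh, Tdrd1, Tdrd5 and Dazl), and none rose, where 66.8% of all genes were called, 35.7% as lower and 31.1% as higher (limma). In Tdrkh, Tdrd1, Mov10l1 and Mael every aged library lay below every adult one, as in 27.8% of all genes. Tdrkh fell by 2.23 SD (adjusted p = 7.03e-05), Tdrd1 by 1.65 SD (3.56e-05), Tdrd5 by 1.53 SD (0.0143) and Dazl by 1.14 SD (0.0494). Piwil2, Ybx2 and Tdrd9 had differences above 0 that were not called, at 0.33, 0.65 and 0.99 SD. Tdrkh and Tdrd1 were called in every alternative in which they were tested. Tdrd5 was not called without aged library 2 (adjusted p = 0.0704), with only these 2 groups in the fit (0.0875) or with 1 variance for each group (0.0689). Dazl was not called without adult library 2 (0.0693), 3 (0.207) or 4 (0.0547) or without aged library 1 (0.167) or 2 (0.17). It was also lost with only these 2 groups in the fit (0.175), with 1 variance for each group (0.173), in the robust fit (0.0517) and with medians set equal (0.144). The Dazl call was kept in 4 of 14 alternatives.

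Between aged HEP14 and young, 5 of the 10 genes were lower (Ybx2, Piwil2, Mael, Tdrd1 and Mov10l1) and none higher, where 15.9% of all genes were called, 10.5% as lower and 5.38% as higher (limma). In Ybx2, Tdrd9, Piwil2, Tdrd1 and Ddx4 the groups did not overlap, as in 16.8% of all genes. Dazl lay 1.01 SD below young (95% interval of the difference -2.05 to 0.02; adjusted p = 0.167), and the difference of Ddx4, -1.60 SD, was not called (adjusted p = 0.0677). The Mov10l1 call was lost with only these 2 groups in the fit (adjusted p = 0.0713), without young library 1 (0.0933) or 4 (0.0731) and without aged HEP14 library 2 (0.0531) or 4 (0.0586). With 1 variance for each group Tdrd9 (adjusted p = 0.0212), Ddx4 (0.00545) and Dazl (0.0311) were called as well. In that setting 6454 of all 17651 genes were called, against 2798 with a shared variance.

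The young libraries were not alike in these genes. Library 4 was the highest of the 4 for 6 members and library 1 for 3, and the lowest was library 2 for 5 members and library 3 for 4. Over all genes each young library was the highest for between 20.9% and 31.2% of genes. The lowest was library 2 for 29.6% of all genes and library 3 for 17.8%. The mean over the 10 genes was 1.58, 0.72, 0.61 and 1.75 SD in young libraries 1 to 4, and the oocyte markers averaged 1.45, 0.90, 0.88 and 1.47. The oviduct markers, from tissue that can be cut with the ovary, averaged 2.08, 1.03, 0.82 and -0.38. In aged HEP14 libraries 1 to 4 the 10 genes averaged 0.01, -0.10, -0.52 and -0.58 and the oocyte markers 0.42, 0.13, -0.81 and -0.69, with the oviduct markers highest, at 1.89, in library 3. The part of oocyte or oviduct content in the differences of the 10 genes was not tested.

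**Figure D4:**
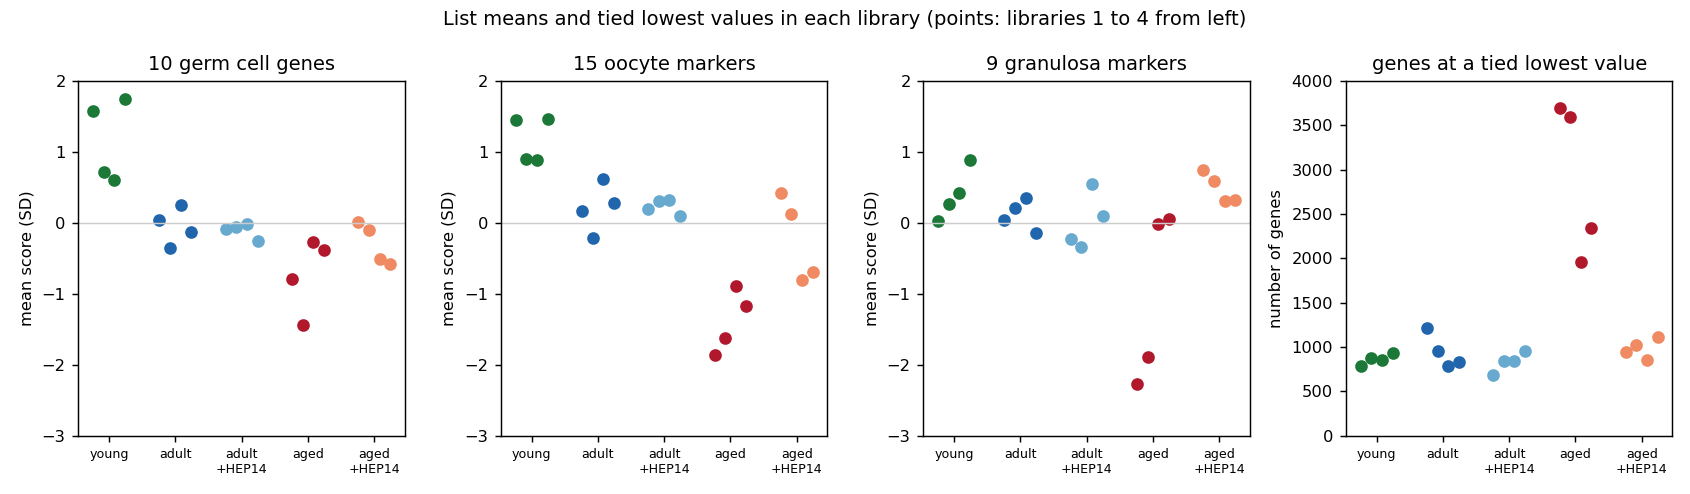
Points are libraries 1 to 4 of each group from left; the vertical axis gives the mean score in SD over a gene list or, in the last panel, the number of genes at a tied lowest value. The 4 aged libraries have the lowest oocyte marker means, -1.86 to -0.89, and the highest numbers of tied genes, 1956 to 3697.

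The oocyte markers give the scale for these changes. All 15 fell from young to aged (limma, median -2.63 SD), and 9 were higher in aged HEP14 than in aged and none lower (median 1.43 SD). Of all genes, 41.3% were called lower in aged than in young and 33.2% higher in aged HEP14 than in aged. Gdf9, which encodes an oocyte growth factor, was 2.70 SD lower in aged than in young and 1.53 SD higher in aged HEP14 than in aged. Zp3, a zona pellucida glycoprotein, was 2.63 SD lower and then 1.43 SD higher (adjusted p = 0.00216). Figla, a transcription factor of the oocyte, was 2.42 SD lower (adjusted p = 5.7e-05) and had a difference of 0.55 SD under HEP14 that was not called (adjusted p = 0.282). All 15 were lower in aged HEP14 than in young (median -1.29 SD), where 10.5% of all genes were called lower.

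Of 24 other piRNA pathway genes, 14 were in the table. From young to aged 41.3% of all genes were called lower and 33% higher (limma). Of the 14, 10 fell and 1 rose, with a median of -2.42 SD. Those with the smallest p were Henmt1, which encodes the methyltransferase of piRNA 3′ ends, at -2.94 SD (SE 0.29; adjusted p = 1.65e-07), Dnmt3l, a cofactor of DNA methylation, at -2.69 SD (adjusted p = 1.94e-06), and Pld6, a mitochondrial nuclease of piRNA biogenesis, at -2.66 SD (adjusted p = 2.51e-06). The 1 that rose was Pnldc1, which encodes the exonuclease that trims piRNA 3′ ends, at 1.94 SD (adjusted p = 0.000193). In aged HEP14 against aged, 4 were higher and 1 lower. Pld6 was 1.94 SD higher (adjusted p = 0.000128) and Henmt1 1.17 SD higher (adjusted p = 0.00148), while Pnldc1 was the 1 lower, by 2.35 SD (adjusted p = 4.13e-05). In adult HEP14 against adult none was called.

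Of 30 other germ cell RNA-binding genes, 25 were in the table, and 20 fell and 1 rose from young to aged (limma, median -2.37 SD). The shares of all genes called lower and higher there were 41.3% and 33%. Eif4e1b, an oocyte form of the cap-binding factor, was 2.89 SD lower (adjusted p = 1.64e-07) and Lin28a, which blocks let-7 maturation, 2.70 SD lower (adjusted p = 6.3e-07). Caprin2 was the 1 that rose, by 2.45 SD (adjusted p = 4.06e-07). In aged HEP14 against aged 14 were higher and 2 lower: Ythdf2, a reader of methylated adenosine that promotes decay of messenger RNA, was 2.10 SD higher (adjusted p = 7.32e-06), Eif4e1b was 1.55 SD higher (5.72e-05) and Caprin2 was 2.20 SD lower (3.46e-06). Several genes of this list, Ythdf2 among them, are also active in cells other than oocytes.

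The named genes outside the 10 that were closest to each member over the 20 libraries were found by the root mean square difference of scores, in SD. For Ddx4 these were Oser1 (0.473), Ankrd55 (0.515), Spata21 (0.526), Sult4a1 (0.534) and Med17 (0.544), and its nearest member was Mael (0.587). For Tdrd1 the closest was Rspo2 (0.228), for Tdrd5 Cnmd (0.304), for Ybx2 Mtmr14 (0.315), for Tdrkh Cds2 (0.371), for Dazl Kif2c (0.378), for Tdrd9 Ephb6 (0.400), for Mov10l1 Mpped1 (0.400), for Piwil2 Pax1 (0.413) and for Mael Evx1 (0.433). Mael and Mov10l1 were nearer to each other, at 0.426, than to the gene given for Mael. For Tdrd9 the nearest member, Ybx2, was at 0.781. These distances are a description over libraries that share the same groups.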

How the data were processed

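The authors deposited scores: each of 17651 genes is standardised over 20 libraries, to a mean of 0 and an SD of 1. How genes entered the table is not stated. Per the labels' protocols, TRIzol was used to extract total RNA of whole ovaries, and sequencing was on a NovaSeq instrument of Illumina. DESeq2 1.20.0, HISAT2 2.0.5 and featureCounts 1.5.0-p3 are named per the submitters' processing notes, without roles; the authors' genome build, annotation and strand setting are not given in the sources. Identifiers were matched to GENCODE M21 (GRCm38), and 17630 matched.

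The scores were tested as deposited with limma 3.58.1 in R 4.3.3, with 1 coefficient for each group over all 20 libraries and Benjamini-Hochberg adjustment over all genes; log2 values and a pseudocount were not used, since scores allow neither. The fit was also run on simulated data, with equal spread and with each group's own spread, and its outcome is not given or relied on here. Standardising each gene over all groups makes the size of a difference depend on the other groups. Depth is unknown, so no counting interval is given. No 2 libraries held identical values. The nearest pair, young 3 and 4, differed by 0.579 SD (root mean square). Equal values within 1e-09 counted as tied.

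The members and lists were chosen with earlier results of these data known. Named were the 10 members, the 3 smallest p in each list of other genes for 2 comparisons, 3 oocyte markers and the nearest genes by distance, leaving out genes without a name of their own. Other genes were named where they were the 1 called in a direction or overlap a member and are protein-coding or in the table. Alternatives were pairwise fits, 1 variance per group, a robust fit, equal library medians, genes with ties left out, a replicate block, leaving out each library and, added after seeing the data, leaving out aged libraries 1 and 2.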

Additional observations from a re-analysis of the deposited data

Results flagged for a closer look

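Piwil2 had 1 adult library far from the others: adult library 1 was at 0.17 SD while the other 3 lay between -0.89 and -0.84, a gap of 0.948 of the group's whole range, past Dixon's 95% critical value. Of 50 sets of 4 libraries (10 genes in 5 groups), 49 could be checked, since all aged libraries were tied for Mov10l1, and this was the 1 set past the critical value; at 95%, chance alone gives a few such sets.

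The effect of HEP14 was called as different between aged and adult ovaries in Tdrd1 and Tdrkh. In this contrast 2 of the 10 members were called, and 47.3% of all genes. For Tdrd1 the effect in aged minus the effect in adult was 1.29 SD (limma interaction, adjusted p = 0.0114). With library medians set equal it was 0.94 SD and not called (adjusted p = 0.0718). For Tdrkh the difference of effects was 2.55 SD (adjusted p = 0.0014). In both genes all 4 aged HEP14 libraries lay above all 4 aged ones, as in 25.8% of all genes. The 4 aged libraries, which also held the most genes at a tied lowest value, enter both results, and the part of that in them was not tested.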

How the results depend on the processing

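Of the values of single genes recomputed under the alternatives, 839 kept their direction and side of the threshold, 22 gained a call, 70 lost one and 26 changed sign. For adult HEP14 against adult this tally holds Tdrkh and Piwil2 only. It leaves out, for example, Ddx4 there, which went from 0.0042 SD to -0.0056 SD with medians equal. Members called with 1 variance per group numbered 8 for adult against young, 2 for aged against adult, 2 for aged HEP14 against aged and 8 for aged HEP14 against young. All genes called in that setting numbered 5174, 9041, 8175 and 6454 of 17651, in the same order. With only the compared libraries fitted, members called numbered 2 for aged against adult (9511 of all genes) and 3 for aged HEP14 against aged (8548). Without aged libraries 1 and 2 (added after seeing the data) they were again 2 and 3, where 10800 and 9927 of all genes were called. With genes of a tied lowest value left out, 5 members were tested, and 4 were called for aged against young, 2 for aged against adult, 3 for aged HEP14 against aged, 3 for aged HEP14 against young and 1 for the difference of HEP14 effects. Of the 13206 genes tested in that setting, 10341, 9766, 9307, 1786 and 7470 were called, in the same order. Leaving out 1 library gave 1 to 5 members for adult against young, 2 to 5 for aged HEP14 against aged and 2 to 4 for the difference of effects. All genes called then ran from 628 to 1475, from 10259 to 11121 and from 7563 to 8793, in the same order. The cause of these moves was not tested, apart from the fewer genes or samples by construction.

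Signs changed for uncalled values: with medians equal, Tdrd9 was at 0.38 SD for aged against young and Mael at -0.019 SD for aged HEP14 against aged. Without aged libraries 1 and 2, Ddx4 was at 0.95 SD for aged against adult, and Mael at -0.16 SD for aged HEP14 against aged and -0.00999 SD for the difference of effects. Leaving out 1 library gave -0.93 to 0.60 SD for Tdrd9 in aged against young, -0.47 to 0.31 for Tdrkh in adult against young, -1.04 to 0.034 for Ddx4 in aged against adult, and -0.47 to 0.60 for Ddx4 both in aged HEP14 against aged and in the difference of effects.

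Over all genes, 1751 were called for adult against young, with 3789 in the pairwise fit, 5174 with 1 variance per group, 784 with ties left out, and 628, 865, 1074 and 646 without young library 1 or 3 or adult library 1 or 2. For aged HEP14 against young, 2798 were called, with 5576, 6454 and 1786 in the same settings, and 1622, 1824, 1763 and 1520 without young library 1 or 3 or aged HEP14 library 2 or 4. For adult HEP14 against adult, 1 was called, and between 0 and 4 in the alternatives.

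The replicate numbers are shared between groups. With the replicate number as a block, members called were 9, 4, 4, 5, 0, 5 and 2 for aged against young, adult against young, aged against adult, aged HEP14 against aged, adult HEP14 against adult, aged HEP14 against young and the difference of effects, as without it. All genes called with the block numbered 13106, 1561, 11727, 10965, 0, 2578 and 8182 of 17651, in the same order. The numbers did not pair the libraries: of 40 same-number pairs 5 had a correlation of deviations above 0.1, the range was -0.422 to 0.155, and 5 of 20 libraries correlated best with their own number. Depth is unknown and sets no stated limit here.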

Other observations

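Single aged libraries stood high in some of the 10 genes while the oocyte markers were low there. Ddx4 was at 1.34 SD in aged library 4, above all 4 adult libraries, while the 15 oocyte markers averaged -1.17 SD in that library. Tdrd9 was at 3.24 SD and Ybx2 at 1.06 SD in aged library 1, where the oocyte markers averaged -1.86 SD and the 10 genes -0.78 SD. Luteal markers, which mark the corpus luteum formed after ovulation, showed another order than the germ cell genes: of 8, 6 were higher in adult than in young and none lower (limma, adjusted p below 0.05, median 2.08 SD), and 2 were higher in aged HEP14 than in aged. Of all genes, 2.75% and 33.2% were called higher in these comparisons. Of 10 lymphocyte markers, 9 were higher in aged than in young (33% of all genes), where 9 of the 10 germ cell genes were lower (41.3%). In aged HEP14 against aged, 8 lymphocyte markers were lower (29.3% of all genes). In aged libraries 1 to 4 the lymphocyte markers averaged 1.90, 1.43, 0.32 and 2.14 SD. The 10 germ cell genes averaged -0.78, -1.44, -0.27 and -0.38 SD there.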
